A study of Mus musculus with 4 samples.

Results

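The transcripts of 9 enzymes of glucose breakdown and glucose synthesis were followed in the kidney and the heart of septic mice with and without melatonin. The 9 genes were taken by name among the 55401 genes of the count tables. Pck1, G6pc and Fbp1 encode enzymes of gluconeogenesis, and Hk1, Hk2, Pfkm, Pfkp, Pkm and Ldha encode enzymes of glycolysis. All 9 were found, and all 9 averaged 10 or more counts over the 4 libraries, the filter used.

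Glycolysis splits glucose into pyruvate, and gluconeogenesis runs most of the same reactions backwards and bypasses the irreversible ones with its own enzymes. Hexokinase (Hk1, Hk2) traps glucose as glucose 6-phosphate, phosphofructokinase (Pfkm, Pfkp) commits it to breakdown, pyruvate kinase (Pkm) makes pyruvate, and lactate dehydrogenase A (Ldha) turns pyruvate into lactate. In the other direction, phosphoenolpyruvate carboxykinase (Pck1) starts from oxaloacetate, fructose 1,6-bisphosphatase (Fbp1) undoes the phosphofructokinase step, and glucose-6-phosphatase (G6pc) releases free glucose. The kidney cortex makes glucose in its proximal tubules, whereas the heart takes glucose up and burns it.

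The study's methods describe male C57BL/6 mice and do not mention the hearts, and each of the 4 groups was 1 library. Sepsis was caused by cecal ligation and puncture (CLP), in which gut contents leak into the abdomen. One kidney library came from the CLP group. The other came from the CLP + MLT group, which had melatonin (MLT) at 25 µg/ml in drinking water for 14 days and CLP afterwards. The mice of the kidney groups were 8 weeks old, and kidneys were taken 24 h after CLP. The other 2 libraries were hearts labelled CLP and CLP + MLT, for which no dose or time is given. What the CLP group drank and how many mice went into a library are not stated in the labels or the study's methods, and the titles of both melatonin libraries carry a number 4 that is not explained. Sham libraries were not used here. In whole tissue, fewer cells of a type and less RNA per cell cannot be told apart.

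Between 15883057 and 22927905 reads per library were counted on genes. Mitochondrial genes took 14.8% of the counts in the CLP kidney, 24.2% in the CLP + MLT kidney, 31.6% in the CLP heart and 35.99% in the CLP + MLT heart, so the reads left for other genes differed. The tissue labels fitted their markers: 14 of 14 proximal tubule genes were higher in kidney and 12 of 12 cardiomyocyte genes higher in heart (adjusted p below 0.05 in edgeR). Kidney transcripts were also counted in the hearts, where the 14 tubule genes summed to 531 (CLP) and 1130 (CLP + MLT) CPM, the TMM-scaled count relative to library size, against 22930 and 34340 in the kidneys.

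The stretch upstream of each gene is given first as a description, and its part in the levels was not tested. Positions are those of the mm10 genome (GRCm38) with GENCODE M21 genes. Pck1 lies at chr2:173153048-173159273 on the plus strand, G6pc at chr11:101367561-101377903 on the plus strand and Fbp1 at chr13:62864753-62888282 on the minus strand. Hk1 lies at chr10:62268855-62379908 and Hk2 at chr6:82725025-82774454, both on the minus strand. Pfkm lies at chr15:98092589-98132451 (plus), Pfkp at chr13:6579768-6648777 (minus), Pkm at chr9:59656368-59679375 (plus) and Ldha at chr7:46841475-46855627 (plus). The 250 bases before the RefSeq start site (GRCm38.p6) were searched on both strands for short motifs, whose share among all 32851 RefSeq promoter windows is given with each. TATAAA, the TATA box, was in 12.4% of these windows. ACGTG, the core of the hypoxia response element, was in 16.6%. The E-box CACGTG, which includes the letters of that core, was in 6.02%. ACGTCA, the core of the cAMP response element, was in 6.47%. The forkhead motif GTAAACA was in 3.17%.

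RefSeq promoter entries were matched for 9 of 9 members, and the entry nearest the principal GENCODE transcript was used. Windows are printed for Pck1 and Fbp1, the gluconeogenesis genes that were higher in the melatonin heart, for Hk2, the glycolysis gene with the widest tissue gap, and for Ldha, a glycolysis gene that was lower in the melatonin heart. Pkm was lower there too, and its window, which held no match, is not printed. They run 5′ to 3′ along the gene's strand and end at the base before the start site, with every match to one of the motifs in capitals.
Pck1 (chr2:173152823-173153072, plus strand): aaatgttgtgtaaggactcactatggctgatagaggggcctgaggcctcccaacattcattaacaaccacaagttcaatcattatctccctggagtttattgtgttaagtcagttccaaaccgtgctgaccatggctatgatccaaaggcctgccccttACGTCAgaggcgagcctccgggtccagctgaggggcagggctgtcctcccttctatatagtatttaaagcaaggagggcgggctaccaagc
Fbp1 (chr13:62888283-62888532, minus strand): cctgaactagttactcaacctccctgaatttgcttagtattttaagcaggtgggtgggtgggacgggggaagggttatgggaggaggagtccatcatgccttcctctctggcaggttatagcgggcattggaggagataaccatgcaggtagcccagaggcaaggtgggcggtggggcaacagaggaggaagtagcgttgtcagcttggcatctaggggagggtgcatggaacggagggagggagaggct
Hk2 (chr6:82774455-82774704, minus strand): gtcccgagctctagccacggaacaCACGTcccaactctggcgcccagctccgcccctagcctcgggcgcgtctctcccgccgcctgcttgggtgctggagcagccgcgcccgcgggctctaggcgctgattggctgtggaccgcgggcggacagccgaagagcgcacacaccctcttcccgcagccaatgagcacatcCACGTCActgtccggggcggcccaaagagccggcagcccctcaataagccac
Ldha (chr7:46845554-46845803, plus strand): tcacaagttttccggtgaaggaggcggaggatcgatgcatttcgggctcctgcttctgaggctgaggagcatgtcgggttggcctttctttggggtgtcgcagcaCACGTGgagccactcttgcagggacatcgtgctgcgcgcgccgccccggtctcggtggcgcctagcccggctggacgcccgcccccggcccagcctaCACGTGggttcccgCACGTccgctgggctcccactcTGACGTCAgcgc

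In Pck1 the match is the cAMP core at positions -91 to -86 from the start site. Hk2 held the cAMP core at -51 to -46, overlapping a hypoxia core read on the other strand, and a second hypoxia core on that strand at -226 to -222. Ldha held the E-box at -145 to -140 and at -48 to -43, a further hypoxia core on the other strand at -34 to -30, and the cAMP core on both strands between -12 and -5. The window of Fbp1 held none of the motifs, and neither did those of Hk1, Pfkp and Pkm. G6pc held the TATA box at -29 to -24, and Pfkm held the E-box at -136 to -131. The cAMP core was thus in 3 of the 9 members' windows, the hypoxia core in 3, the E-box in 2, the TATA box in 1 and the forkhead motif in 0. Promoter entries that were not used held a hypoxia core on the other strand for Pkm at -75 to -71 and for Pfkm at -244 to -240. A match says only that these letters are present.

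The 9 genes spanned nearly the whole range of expression, and the order of levels differed between the tissues. Levels between genes are compared as RPKM, which are counts divided by library size and exon length, here after TMM scaling over the 4 libraries. Pck1 was the highest of the 9 in kidney, at 814 RPKM with CLP and 567 with CLP + MLT, which ranked it 34 and 57 among 17088 genes. Its level was 15.8 RPKM in the CLP heart and 28.9 in the CLP + MLT heart.

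**Figure D1:**
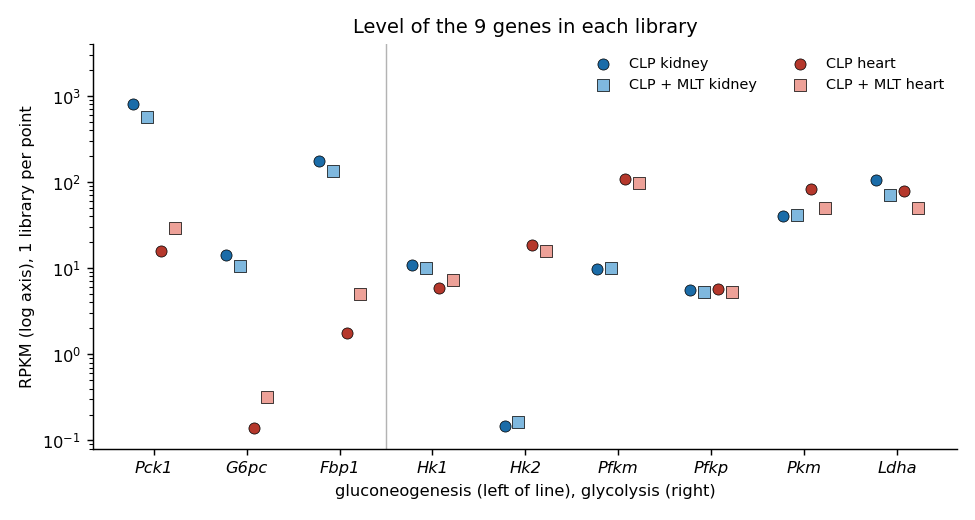
Level of each of the 9 genes in each of the 4 libraries, in RPKM on a log axis, with 1 point per library (blue for kidney, red for heart, circles for CLP, squares for CLP + MLT). Pck1, Fbp1 and G6pc sit far higher in both kidneys than in both hearts, Hk2 and Pfkm the other way round, and Pfkp lies between 5.24 and 5.79 RPKM in all 4.

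Fbp1 came second in kidney at 178 and 136 RPKM (CLP, then CLP + MLT) and stood at 1.75 and 4.96 in heart. G6pc was lower, at 14.3 and 10.5 RPKM in kidney, and rested on 5 and 11 counts in the hearts. For these 3 genes the kidney and heart libraries did not overlap. The share of all genes without overlap was not counted, and the fit that follows called 58.3% of the genes tested. In an edgeR quasi-likelihood fit of tissue and treatment over the 4 libraries (2 per tissue, 1 residual degree of freedom), Pck1 was 31.8-fold higher in kidney (log2 4.99 ± 0.49 SE, adjusted p = 1.58e-05). The same edgeR fit gave 50.4-fold for Fbp1 (log2 5.66 ± 0.45, adjusted p = 3.48e-06) and 52.9-fold for G6pc (log2 5.73 ± 0.40, adjusted p = 1.63e-06).

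Among the glycolysis enzymes Hk2 had the widest gap. Hk2, the hexokinase of insulin-responsive muscle, had 24 counts in the CLP kidney and 17 in the CLP + MLT kidney, against 1653 and 1358 in the hearts. It was 112-fold higher in heart (log2 -6.81 ± 0.28 kidney over heart, edgeR adjusted p = 2.65e-07). Hk1, the hexokinase found in most tissues, leaned the other way: its level was 10.8 and 10.2 RPKM in the kidneys and 5.95 and 7.29 in the hearts, a 1.60-fold difference (log2 0.67 ± 0.21, edgeR adjusted p = 0.0213). Hk1 passed the 1.5-fold limit between the CLP libraries (1.82-fold) and not between the CLP + MLT libraries (1.40-fold), and DESeq2's Wald test did not call it.

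Pfkm, the muscle phosphofructokinase, stood at 9.90 and 10.1 RPKM in kidney and at 107 and 98.5 in heart (log2 -3.36 ± 0.26 kidney over heart, edgeR adjusted p = 3.22e-06). Pfkp, the platelet form, was at 5.56 and 5.24 RPKM in kidney and 5.79 and 5.32 in heart, with a log2 difference of -0.04 ± 0.20 (edgeR adjusted p = 0.88). Its kidney and heart values overlapped. Part of the exons of Pfkm overlap Senp1 on the other strand, and part of those of Pfkp overlap Pitrm1, so some of their reads could belong to the neighbour.

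Pkm and Ldha, the last steps to pyruvate and lactate, did not pass the test between tissues. Pkm was at 39.8 and 41.3 RPKM in the CLP and CLP + MLT kidney and at 81.8 and 50.1 in the hearts (log2 -0.66 ± 0.29 kidney over heart, edgeR adjusted p = 0.0726). Between the CLP libraries alone Pkm was 2.06-fold higher in heart, and between the CLP + MLT libraries 1.21-fold. Ldha was at 104 and 71.2 RPKM in kidney and 78.4 and 50.5 in heart (log2 0.45 ± 0.25, edgeR adjusted p = 0.153), and its kidney and heart ranges overlapped. Multi-mapped reads were not counted, and pseudogene copies of Ldha are annotated, so its counts may be too low in all 4 libraries. Part of the exons of Pkm overlap Gm49759 on the same strand, which had 254 and 92 counts in the kidneys and 74 and 48 in the hearts. Those of Hk1 overlap Hk1os on the other strand, which had 2 to 13 counts per library.

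In all, 4 of the 9 genes were higher in kidney and 2 higher in heart by this test. Over all 17088 genes tested, 58.3% were called, 29.9% higher in kidney and 28.4% higher in heart. The median log2 difference of the 9 was 0.45, beside 0.07 over all genes. Scaling by library size alone moved the median of all genes to 0.40 and split the calls into 6300 higher in kidney and 3647 higher in heart, instead of 5110 and 4849. Under it Ldha was also called higher in kidney.

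**Figure D2:**
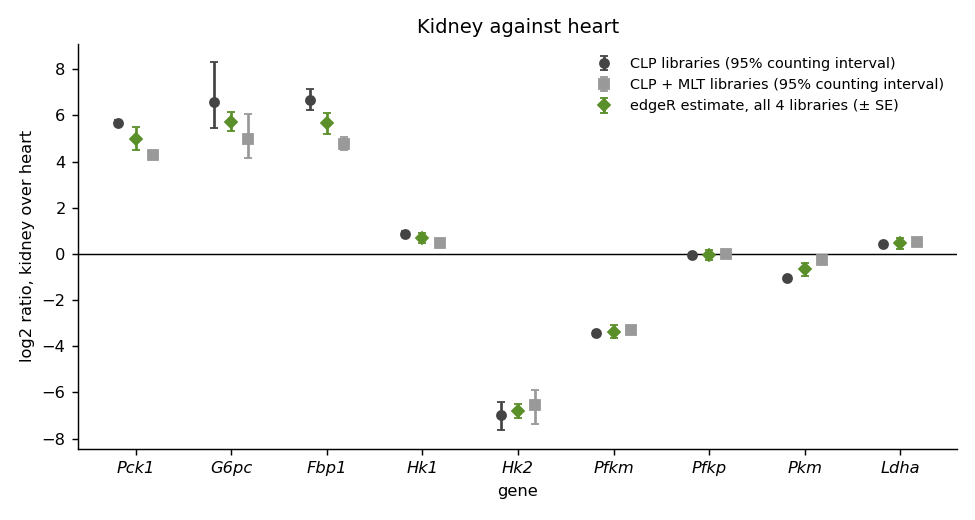
Log2 ratio of kidney over heart for each gene. Circles compare the CLP libraries and squares the CLP + MLT libraries, with 95% counting intervals, and diamonds are the edgeR estimate over all 4 libraries ± SE. Pck1, G6pc and Fbp1 lie between 4.30 and 6.65, Hk2 near -6.81, and for these 3 gluconeogenesis genes the CLP + MLT ratio is the smaller one.

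Each step is shared between isozymes, and their proportions within a library do not depend on how libraries are scaled. Shares are given as the percentage of the summed RPKM of a step. Of the sum of Hk1, Hk2, Hk3 and Hkdc1, Hk1 made up 91.6% in the CLP kidney and 89.1% in the CLP + MLT kidney, but 23.1% and 29.3% in the hearts. In the hearts Hk2 led with 72.7% (CLP) and 64.4% (CLP + MLT), and in the kidneys it held 1.24% and 1.45%. Hkdc1, a hexokinase relative, took 6.29% and 3.76% in the kidneys, and Hk3 4.14% and 5.92% in the hearts.

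At the phosphofructokinase step Pfkm took 85.7% and 85.9% in the hearts and 44.4% and 47.3% in the kidneys, where the liver form Pfkl (30.6% and 28.2%) and Pfkp (24.96% and 24.5%) shared the rest. The order in kidney depended on the division by length: of the counts themselves Pfkp held 48.7% and 48.7% there, and Pfkm 21.6% and 23.4%. The pyruvate kinase step was almost wholly Pkm in heart, at 99.2% and 99.5%. In kidney Pkm held 59.2% with CLP and 89.8% with CLP + MLT. The remainder was Pklr, the liver and red cell form, whose counts were 2436 and 263. Pklr shares exon sequence with Hcn3 on the opposite strand, whose counts were 1883 and 273 in the same libraries, and without known strand the reads of the pair cannot be told apart.

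Lactate dehydrogenase was mainly Ldhb, the form that favours lactate use, in both tissues. Ldha made up 18.8% and 14.5% of Ldha plus Ldhb in the kidneys and 22.7% and 22.2% in the hearts, and of their counts, not divided by length, 32.7% and 26.4% and 38.2% and 37.5%. In gluconeogenesis, Pck1 made up 99.7% and 99.5% of carboxykinase in the kidneys, and the mitochondrial form Pck2 28.6% and 16.3% in the hearts (47.8% and 30.7% of the counts). Fbp1 was 89.5% and 89.4% of fructose bisphosphatase in the kidneys and 11.2% and 42.9% in the hearts, where the muscle form Fbp2 was the larger part. The widely expressed G6pc3 made up 52.0% and 62.7% of glucose-6-phosphatase in the kidneys and 98.6% and 97.2% in the hearts.

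**Figure D3:**
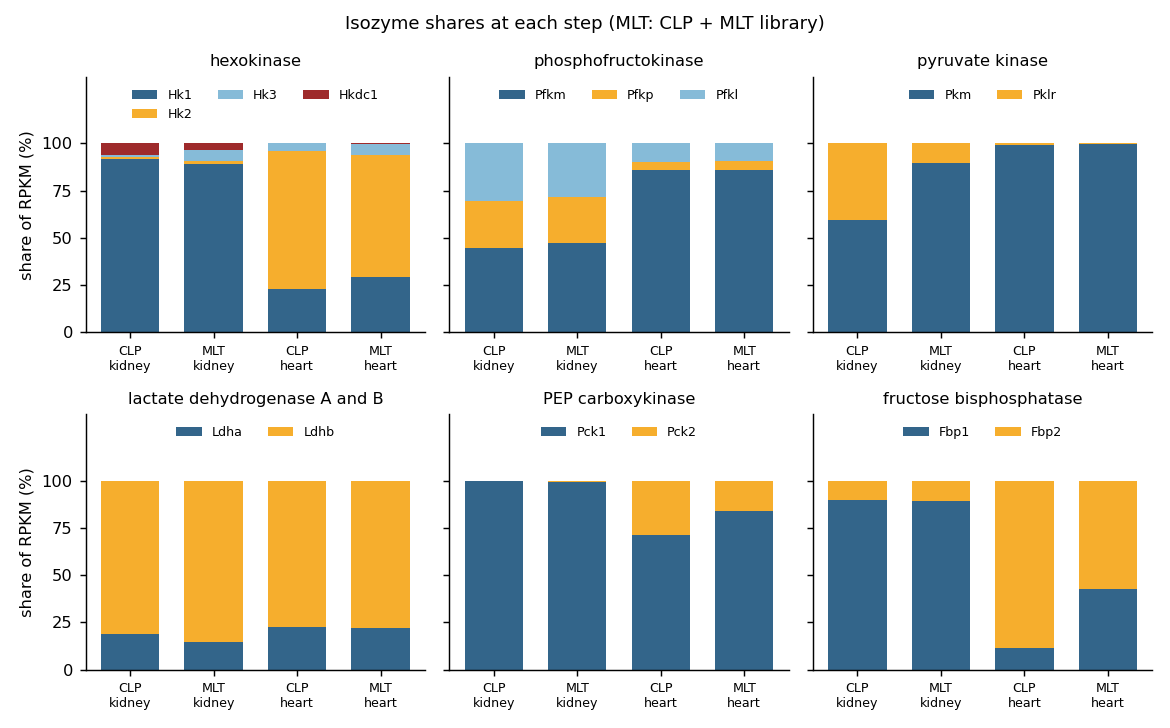
Share of each isozyme in the summed RPKM of its step, in percent, for the CLP kidney, CLP + MLT kidney, CLP heart and CLP + MLT heart (1 library per bar). Hexokinase is mostly Hk1 in kidney and mostly Hk2 in heart, Pklr shrinks from 40.8% to 10.2% between the 2 kidneys, and Fbp1 is the larger form in kidney and the smaller in heart.

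With melatonin, Pck1, G6pc, Fbp1 and Ldha were 1.30- to 1.46-fold lower in kidney, and none of the 9 genes passed the thresholds there. To pass, a gene had to differ 1.5-fold or more with an exact binomial p of 0.01 or less on its reads, which compares 2 libraries and not 2 conditions. There was no replicate, so the spread between mice is unknown. In kidney 0 of 9 members passed, beside 15.4% of 16932 genes, 7.8% higher and 7.58% lower. The median log2 ratio of the 9 was -0.09, beside 0.00 for all genes.

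Pck1 had 76597 counts in the CLP kidney and 33584 in the CLP + MLT kidney, 1.43-fold lower after TMM scaling (log2 -0.52, 95% counting interval -0.54 to -0.50). G6pc had 945 and 436 counts (log2 -0.44, -0.61 to -0.28), and Fbp1 had 8294 and 3991 (log2 -0.38, -0.44 to -0.33). These 3 ratios of the gluconeogenesis genes lay close together: the ratio of Pck1 to G6pc counts was 81.1 in the CLP kidney and 77.0 in the CLP + MLT kidney (log2 change -0.07, -0.24 to 0.09). The ratio of Pck1 to Fbp1 moved from 9.23 to 8.41 (log2 change -0.13, -0.19 to -0.08).

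Among the 6 glycolysis members Ldha had the lowest log2 ratio in kidney, with 9462 and 4068 counts (1.46-fold lower, log2 -0.55, -0.60 to -0.49). Tubular injury genes and leukocyte genes moved between these libraries too: 6 of 8 injury genes were lower, and their summed level was 10180 CPM in the CLP kidney and 2149 in the CLP + MLT kidney. Of 10 leukocyte genes 4 were higher and 1 lower, with sums of 104 and 211. Of 14 proximal tubule genes 7 were higher and 4 lower. Their part in the ratios of the members was not tested.

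The other 5 glycolysis genes differed by less than 1.13-fold in kidney. Hk1 had 2542 and 1497 counts in the CLP and CLP + MLT library (log2 -0.09), Pfkp 2046 and 1212 (log2 -0.08) and Pfkm 908 and 582 (log2 0.03). Pkm had 5464 and 3568 counts (log2 0.06, -0.00 to 0.12). For Hk2, with 24 and 17 counts, the interval of -0.81 to 1.13 was too wide to show a difference at this depth.

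Ratios within a library put Pkm apart from Pck1 and Ldha. In kidney the ratio of Pkm to Pck1 counts was 0.0713 with CLP and 0.106 with CLP + MLT, a 1.49-fold difference (log2 0.57, 0.51 to 0.64). The ratio of Pkm to Ldha moved from 0.577 to 0.877, by 1.52-fold (log2 0.60, 0.52 to 0.68), and that of Ldha to Ldhb from 0.487 to 0.359, by 1.36-fold. These 3 ratios do not depend on scaling. Scaling by library size alone placed Pck1 (log2 -0.71), G6pc (-0.64) and Ldha (-0.74) past the thresholds, while it moved the median of all genes to -0.19 and split the calls into 727 higher and 2373 lower, instead of 1320 and 1284.

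In heart, 4 of the 8 members that passed the filter were past the thresholds, Pck1 and Fbp1 higher and Pkm and Ldha lower with melatonin. Of 15871 genes 15.9% were past them in heart, 7.15% higher and 8.78% lower. The median log2 ratio of the 8 was -0.17, beside 0.00 for all genes. G6pc, with 5 and 11 counts, averaged under 10 counts over the pair and was not tested.

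**Figure D4:**
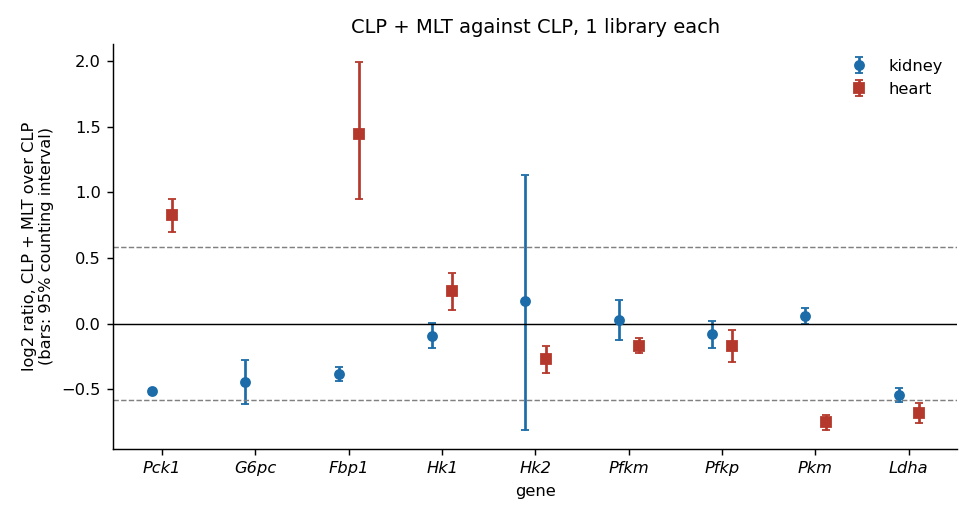
Log2 ratio of the CLP + MLT library over the CLP library for each gene in kidney (blue circles) and heart (red squares), 1 library per group, with 95% counting intervals. Dashed lines mark a 1.5-fold difference. The kidney points of Pck1, G6pc, Fbp1 and Ldha lie between -0.55 and -0.38, and in heart Pck1 and Fbp1 lie above the upper line and Pkm and Ldha below the lower one.

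Pck1 had 801 counts in the CLP heart and 1408 in the CLP + MLT heart (1.77-fold higher, log2 0.82, 0.70 to 0.95). Fbp1 had 44 and 120 counts (2.73-fold higher, log2 1.45, 0.95 to 1.99). These levels were small against kidney: the heart level of Pck1 was 1.94% of the kidney level in the CLP libraries and 5.09% in the CLP + MLT libraries, with 0.985% and 3.65% for Fbp1 and 0.982% and 3.06% for G6pc. Most kidney tubule genes moved with them: of 14 proximal tubule markers 12 had a higher and 2 a lower level in the CLP + MLT heart. The heart levels of the 14 proximal tubule markers were 1.23% to 13.9% of the kidney level in the CLP libraries (median 3.17%) and 1.35% to 34.9% in the CLP + MLT libraries (median 5.23%). Such a percentage also rises where the kidney level falls. The 34.9% was Slc5a2, which was lower in both tissues (log2 -0.36 in heart, -2.23 in kidney).

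Of the 14 tubule markers 10 were higher past the thresholds in the CLP + MLT heart and none lower, with a median log2 ratio of 1.09. For example, Kap, an androgen-regulated protein of the proximal tubule, had 4352 and 9602 counts in the hearts (log2 1.15), and Slc34a1, its phosphate transporter, 587 and 1454 (log2 1.32). Of 10 distal nephron markers 8 passed the filter and 5 were higher. The part of kidney transcripts in the heart ratios of Pck1 and Fbp1 was not tested. Fat and liver also make Pck1. The 8 hepatocyte genes summed to 33.7 CPM in the CLP heart and 47.0 in the CLP + MLT heart, and of the 7 tested 4 were higher and 1 was lower. The median log2 ratio of those 7 was 0.74, with a range of -0.99 to 1.70. These hepatocyte genes were not particular to liver here: they summed to 1183 and 936 CPM in the kidneys. Of the 7 tested between tissues 6 were higher in kidney by edgeR. In the hearts Alb was at 140 and 70 counts and Cps1 at 0 and 0. The 8 adipocyte genes summed to 1776 and 2022 CPM, of which Fabp4, also made by endothelium, had 26259 and 28735 counts and was the only one to pass the filter (log2 0.14). Adipoq had 12 and 1 counts, and Plin1 0 and 2. The part of these lists in the heart ratios was not tested.

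**Figure D5:**
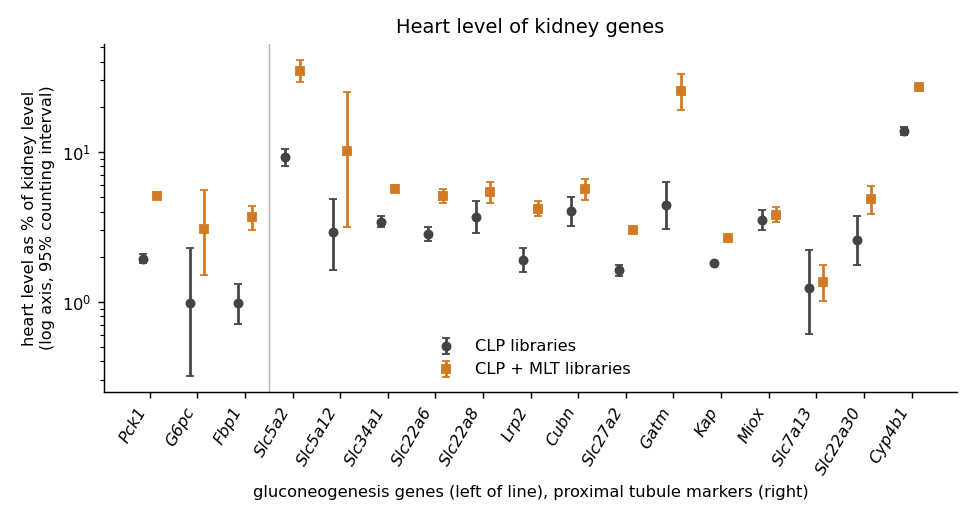
Heart level as a percentage of the kidney level (log axis) with 95% counting intervals, for Pck1, G6pc and Fbp1 left of the line and 14 proximal tubule markers right of it. Circles are the CLP libraries and squares the CLP + MLT libraries. The 3 gluconeogenesis genes lie between 0.982% and 5.09%, within the range of the tubule markers in the CLP + MLT libraries, while Fbp1 and G6pc lie under the lowest marker (1.23%) in the CLP libraries.

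Pkm had 6054 counts in the CLP heart and 3564 in the CLP + MLT heart (1.69-fold lower, log2 -0.75, -0.81 to -0.69). Ldha had 3839 and 2378 (1.60-fold lower, log2 -0.68, -0.76 to -0.61). The ratio of Pkm to Ldha was 1.58 and 1.50 in the hearts (log2 change -0.07, -0.17 to 0.02), unlike in kidney. Of 12 cardiomyocyte markers 5 were lower and 1 was higher past the thresholds, and their summed level was 40410 CPM in the CLP heart and 28480 in the CLP + MLT heart. Their part in the lower Pkm and Ldha was not tested.

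The remaining glycolysis members stayed within 1.5-fold in heart. Hk1 had 751 and 884 counts (log2 0.24, 0.10 to 0.39) and Hk2 1653 and 1358 (log2 -0.27, -0.38 to -0.17). The ratio of Hk2 to Hk1 counts was 2.20 in the CLP heart and 1.54 in the CLP + MLT heart (log2 change -0.52, -0.69 to -0.34). Pfkm had 5298 and 4678 counts and Pfkp 1147 and 1013, and the ratio of Pfkp to Pfkm was 0.217 in both hearts.

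Set against each other, the ratio of Pkm to Pck1 was 1.49-fold higher with melatonin in kidney and 2.99-fold lower in heart, where it moved from 7.56 to 2.53. The ratio of Pfkm to Fbp1, an opposing pair of enzymes at fructose 6-phosphate, was 1.33-fold higher in kidney and 3.09-fold lower in heart. In heart it rested on 44 and 120 Fbp1 counts. Fbp2, the larger form there (88.8% and 57.1%), was lower with melatonin (log2 -1.11), so the ratio does not describe the whole step. The heart levels of Pck1 were 1.94% (CLP) and 5.09% (CLP + MLT) of kidney, and those of Fbp1 0.985% and 3.65%. Of 14 proximal tubule markers 10 were higher past the thresholds in the CLP + MLT heart, and their part in these heart ratios was not tested. No test between mice was possible for the differences in these ratios.

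The other enzymes of glycolysis held larger differences in kidney than the 9 members. Of 17 further glycolysis genes all 17 were tested in kidney, and 2 were higher and 3 lower, with a median log2 ratio of -0.18. Beside this and the lists below, 7.8% of all genes tested were higher and 7.58% lower in kidney. The shares in heart were 7.15% and 8.78%. Pklr was 5.81-fold lower with melatonin (log2 -2.54), with the overlap with Hcn3 given above. Hk3, the hexokinase of blood cells, had 10 and 41 counts (log2 2.64), and its exons overlap Unc5a. Of the 10 leukocyte genes 4 were higher and 1 lower between the same libraries, and their part in the Hk3 ratio was not tested. Eno3, the muscle enolase, was higher (log2 0.83, 475 and 529 counts), and Hkdc1 was lower (log2 -0.79, 105 and 38 counts). Pgam1, named after its values were seen, was lower too (log2 -0.75), and pseudogenes of it are annotated.

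In heart 15 of these 17 genes were tested, and 5 were lower and none higher, with a median of -0.35. Pgam2, the muscle phosphoglycerate mutase, had 6692 counts in the CLP heart and 2226 in the CLP + MLT heart (2.98-fold lower, log2 -1.58). Aldoa, the muscle aldolase, had 18588 and 9028 (2.04-fold lower, log2 -1.03), and Eno3 6896 and 3487 (log2 -0.97). Aldoa overlaps Fam57b on the other strand and has pseudogenes. Ldhb was lower (log2 -0.64), as was Pklr on only 31 and 12 counts (log2 -1.32).

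Of 5 further gluconeogenesis genes 1 was lower in each tissue. In kidney it was Pcx, the pyruvate carboxylase that feeds oxaloacetate to Pck1, with 13798 and 5497 counts (1.57-fold lower, log2 -0.66). In heart it was Fbp2, with 300 and 138 counts (2.15-fold lower, log2 -1.11), the opposite direction to Fbp1. Pck2 (log2 0.22 in kidney, -0.22 in heart) and G6pc3 (0.19 and 0.12) stayed within the thresholds.

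Of 8 transporters of glucose and lactate tested in kidney, 3 were lower and none higher. Slc5a2, the main sodium-coupled glucose carrier of the early proximal tubule, had 4771 and 637 counts (4.70-fold lower, log2 -2.23) and overlaps BC017158, which had 3203 and 712. Slc16a1, a lactate and pyruvate carrier, had 1053 and 182 (3.63-fold lower), and Slc2a2, the basolateral glucose carrier, 2024 and 457 (2.78-fold lower). In heart 2 of 9 were higher and 1 lower: Slc16a7 (14 and 58 counts, log2 2.02) and Slc2a3 (47 and 78, log2 0.73) were higher, and Slc16a3 (73 and 35, log2 -1.04) was lower. Slc16a7 was 71.7 and 82.9 CPM in the kidneys against 0.947 and 4.08 in the hearts.

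Among genes for the entry of pyruvate into mitochondria, Pdk4 was lower in both tissues. Pdk4, the kinase that shuts off pyruvate dehydrogenase in fasting, had 6729 counts in the CLP and 1290 in the CLP + MLT kidney (3.27-fold lower, log2 -1.71), and 6192 and 3589 in the hearts (1.71-fold lower, log2 -0.78). In kidney it was the only one of 11 genes past the thresholds, and in heart Mpc2, a subunit of the mitochondrial pyruvate carrier, was lower as well (log2 -0.64). The median of the 11 was 0.04 in kidney and -0.25 in heart.

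Genes that carry glutamine carbon towards glucose included 3 of 8 lower in each tissue and none higher. In kidney these were Glud1 (log2 -0.72), Got1 (-0.69) and Gpt2 (-0.67), and in heart Got2 (-1.19), Mdh2 (-1.08) and Gpt2 (-0.65). Glud1 feeds glutamate into the citric acid cycle, and the others move amino groups or reducing equivalents between compartments. The median log2 ratio of the 8 was -0.32 in kidney and -0.14 in heart.

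Of 8 glycogen enzymes 1 passed the thresholds in kidney and 0 in heart, beside 15.4% and 15.9% of all genes. Gbe1, the glycogen branching enzyme, was lower in kidney (283 and 96 counts, log2 -0.89). Of 5 genes for fructose 2,6-bisphosphate, the activator of phosphofructokinase, 0 passed in either tissue, with medians of 0.19 in kidney and 0.12 in heart. Between tissues, Pfkfb1 and Pfkfb2 were higher in heart (log2 -5.43 and -3.90 kidney over heart, edgeR adjusted p = 4.38e-07 and 7.54e-07).

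Among 15 regulators, 2 were lower in kidney and 2 of 14 tested were higher in heart. Myc, an activator of Ldha and Pkm in growing cells, had 499 and 133 counts in kidney (2.35-fold lower, log2 -1.23), and Igfbp1, a target of insulin and glucocorticoid signalling, 77 and 20 (log2 -1.26). Hnf4a, a factor of liver and proximal tubule, had 81 and 203 counts in the hearts (log2 1.33) against 10248 and 5925 in the kidneys, and Irs2, an insulin receptor substrate, 62 and 119 in the hearts (log2 0.94). Hif1a, Foxo1, Ppargc1a and Crtc2, known for control of these pathways, stayed within the thresholds in both tissues.

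The genes most like Pck1 over the 4 libraries, by Euclidean distance of centred log2 levels among 10044 genes whose mean level reached 10 CPM, were Slc18a1 (distance 0.162), Aass (0.195) and Kcnj15 (0.196). Aass had 9240 and 4083 counts in the kidneys and 89 and 139 in the hearts. Those most like Hk2 were Gm9899 (0.147), whose exons overlap Kcnk3, Ctla4 (0.205) and Abra (0.230), an actin-binding protein of striated muscle with 2 and 0 counts in the kidneys and 578 and 500 in the hearts. With 4 libraries from 2 tissues, the tissue sets most of this likeness.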

How the data were processed

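RNA was measured by poly-A RNA-seq in 4 libraries, grouped by their labels. Per the submitters' notes and the study's methods, the authors trimmed reads with trim-galore, aligned them to mm10 with HISAT2 2.1.0 and deposited read counts per gene made with HTSeq, not normalized. For HTSeq, the version, strand setting and annotation are not stated there. Rows that name no gene (5 per file) were left out. They included reads on no gene (29.6% to 37.7% of a file) and reads with several alignments (23.6% to 38.6%). Symbols came from an identifier table (55141 of 55401 matched) and exon lengths from GENCODE M21.

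From the counts, TMM factors, log2 ratios (prior count 0.5, genes averaging 10 counts or more) and exact binomial tests were computed within each tissue with edgeR 4.0.16 in R 4.3.3 and scipy 1.17.1 (Python 3.11.15, numpy 2.4.6, pandas 2.3.3, matplotlib 3.10.9). RPKM and kidney over heart used factors over all 4 libraries. Kidney over heart was tested with edgeR's quasi-likelihood test on ~ treatment + tissue with Benjamini-Hochberg adjustment over 17088 genes (adjusted p below 0.05). The libraries of a tissue came from groups treated differently, and nothing says whether a kidney and a heart library share mice. In this fit a difference of the melatonin effect between tissues counts as spread, and no replicate of a group enters it. Intervals are 95% exact Clopper-Pearson intervals (normal approximations on the log scale for ratios of 2 genes) and cover counting error only, since PCR copies are not independent molecules. Named genes were checked for exons shared with neighbours.

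The procedure was tested on simulated counts. In the kidney comparison, over 16932 genes, 199 of 200 genes changed 2-fold were recovered and 29 unchanged genes called. In heart, over 15871 genes, 199 of 200 were recovered and 41 called. In kidney over heart, 200 of 200 genes changed 4-fold were recovered and 6 of the other genes called, over 17088 genes. These figures show that the calculation returned the changes put into simulated counts. With 1 library per group the spread between mice is unknown and could not be taken from these data. None of these figures is therefore an error rate for differences between mice.

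The members and lists were chosen with earlier results of these data known. Named genes are the members, their isozymes, up to 4 genes past the thresholds per list and tissue by size of the log2 ratio, the 3 genes most like Pck1 and the 3 most like Hk2. Genes named as examples of markers, transporters or regulators without a call, and Pgam1, were chosen after their values were seen. A total of 1 gene is not reported here and was left out of its list and of the shares. Protein sequences were not used here. The alternatives were other scalings (library size, DESeq2 1.42.0 size factors, upper quartile, without mitochondrial and haemoglobin genes), other filters and prior counts, a 2-fold limit, the edgeR exact test with an assumed coefficient of variation (0.1, 0.2 or 0.4), DESeq2's Wald test, no treatment term, and each treatment alone.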

Additional observations from a re-analysis of the deposited data

Results flagged for a closer look

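Of the genes described, 7 had opposite directions with melatonin in kidney and in heart, with both counting intervals clear of 0 and ratios at least 2-fold apart. The difference was not tested, since each group was 1 library. The share of all genes that met this rule was not counted, so the 7 are given as a description only. Pck1 had a log2 ratio of -0.52 in kidney and 0.82 in heart, a difference of -1.34. Fbp1 had -0.38 and 1.45, a difference of -1.83. Hnf4a had -0.12 and 1.33, a difference of -1.45. Of the 14 proximal tubule markers 10 were higher in the CLP + MLT heart, and their part in these 3 heart ratios was not tested.

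The other 4 differed the other way. Eno3 had 0.83 in kidney and -0.97 in heart (difference 1.80), and Pgam2 had 0.23 and -1.58 (difference 1.80). Aldoa had 0.04 and -1.03 (difference 1.07), and Mpc2 had 0.43 and -0.64 (difference 1.07). Pck1, Fbp1, Hnf4a, Aldoa, Pgam2 and Mpc2 were within the 1.5-fold limit in kidney, so their kidney direction was judged against counting error alone. Under scaling by library size only, which moved the median of all kidney genes to -0.19, the kidney ratio of Aldoa was -0.15 and lay on the same side as that of the heart, and the kidney ratio of Pgam2 was 0.03.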

How the results depend on the processing

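With 1 library per group, none of these settings measures the spread between mice, and no library could be left out of a melatonin comparison. No paired analysis was possible because each group is 1 library and the CLP titles carry no number (the 4 stands in the titles of the melatonin libraries alone). In kidney the count of 0 members past the thresholds became 3 under scaling by library size only and was 0 under every other alternative. In heart the count of 4 became 1 under the 2-fold limit (Fbp1), 1 at an assumed coefficient of variation of 0.2 (Fbp1) and 0 at 0.4, and was 4 under the other alternatives. The median log2 ratio of the members ran from -0.29 (library size only) to -0.07 in kidney and from -0.17 to -0.11 in heart. Between tissues the count of 6 ranged from 5 to 7: Hk1 was not called by DESeq2 or in the CLP + MLT libraries alone, Ldha was added under scaling by library size only, and Pkm was added in the CLP libraries alone. Over single members and alternatives 250 results kept their side of the threshold, 12 were no longer past it and 5 became so. No result that was past it in either setting changed direction. Members not past it could do so. Under scaling by library size only the kidney log2 ratios of Hk2, Pfkm and Pkm became -0.02, -0.16 and -0.14, instead of 0.17, 0.03 and 0.06. Pfkp in kidney over heart became 0.29 instead of -0.04.

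Computed from counts not divided by length, the shares of G6pc in all 4 libraries, Hk2 in both kidneys, Fbp1 in both hearts and Pkm in the CLP + MLT heart stayed within counting error, and the following moved by more. Of the 4 hexokinase genes, Hk2 was 67.1% in the CLP heart and 58.4% in the CLP + MLT heart. Of phosphofructokinase, Pfkm was 21.6% and 23.4% in the kidneys, where Pfkp led with 48.7% and 48.7%, and 69.3% and 69.7% in the hearts. Of pyruvate kinase, Pkm was 69.2% and 93.1% in the kidneys and 99.5% in the CLP heart. Ldha was 32.7% and 26.4% in the kidneys and 38.2% and 37.5% in the hearts. Pck1 was 99.4% and 98.9% in the kidneys and 52.3% and 69.3% in the hearts, and Fbp1 90.8% and 90.8% in the kidneys. Depth limits Hk2 in kidney and G6pc and Pklr in heart, which rest on 5 to 31 counts.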
